A study of Saccharomyces cerevisiae with 2 samples.

Results

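Folate enzymes carry single carbon units from serine and glycine to the methyl group of methionine, and RNA levels of 10 genes for such enzymes are described here in budding yeast depleted of methionine. The genes were chosen by systematic name for their place in this pathway, and all 10 of them were found among the 6692 rows of the count tables: MET7, MET12, MET13, SHM1, SHM2, ADE3, MIS1, GCV1, GCV2 and GCV3. There were 2 libraries of 1 group, replicates 1 and 2 of strain yJL59a, which is labelled MATa and carries ade2-1 in adenine synthesis, the permease allele can1-100, the auxotrophic alleles ura3-1, trp1-1 and his3-11,15, and the leu2 mutations 3 and 112 in combination. Its constructs are CDC20::MET3pr-mCherry::URA3 and, at another locus, CWC23::MET3pr-GFP::KanMX, so the promoter of the methionine gene MET3 drives a reporter at each. Methionine was present in the 50 mL synthetic cultures until OD660 reached 0.2, after which the cells were washed and kept in medium lacking it, and beads were used to isolate mRNA. Every allele is shared by both libraries, and no culture with methionine was analysed here, so no gene can be called induced or repressed. The study calls its RNA samples biological replicates.

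The libraries held 34052011 and 35367508 counts. Genes that differ by mating type did not match MATa, since the 7 a-specific genes lay between 3.92 and 11.99 FPKM and the 4 alpha-specific genes without a near-identical copy lay between 229.9 and 2401 FPKM. None of the 7 was at 0 counts. TRP1 had 0 counts in both libraries, and HIS3 had 18 and 15. Whether these low counts follow from the labelled trp1 and his3 alleles was not tested. FPKM here is the count per kb of coding sequence, scaled to 1000000 library counts. Values are the mean ± SD of the replicates (n = 2), and the median of the 6007 genes with a coding length was 45.9 FPKM. In a bulk culture, fewer cells that transcribe a gene and less RNA per cell cannot be told apart.

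Serine hydroxymethyltransferase moves a carbon from serine to tetrahydrofolate and leaves glycine. Yeast has a cytosolic form, Shm2, and a mitochondrial form, Shm1. A trifunctional synthase then interconverts the methylene, methenyl and formyl forms of the carbon unit, and again the cytosol (Ade3) and the mitochondrion (Mis1) have an enzyme each. Methylenetetrahydrofolate reductase, encoded by MET13 and MET12, makes the methyl form that methionine synthase Met6 uses in the cytosol. In mitochondria the glycine cleavage system takes a carbon from glycine with the T protein Gcv1, the P protein Gcv2, the H protein Gcv3 and the L protein Lpd1, the last of which is shared with other dehydrogenases. Met7 adds the glutamate tail that keeps folates in the cell and in mitochondria.

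The DNA before the start codon was searched for the letters of 4 motifs, and the windows that held a match other than the glycine response are printed here. They run from 250 to 51 bases before the start codon on the gene's own strand, read from R64, which the labels call sacCer3. Capitals mark TGACTC (the core bound by Gcn4 and by Bas1), TGTGGC (the core of Met31 and Met32, which bring Met4 to DNA) and CACGTG (Cbf1), on either strand. The positions are chrXII:259452-259651 (minus strand) for SHM2, chrVII:905684-905883 (plus) for ADE3 and chrIV:485416-485615 (minus) for GCV1. They are chrXIII:637250-637449 (plus) for GCV2 and chrI:58513-58712 (minus) for GCV3, of which the first 18 bases lie in the upstream gene PTA1. For the reductases they are chrVII:272270-272469 (plus) for MET13 and chrXVI:506363-506562 (minus) for MET12.
SHM2: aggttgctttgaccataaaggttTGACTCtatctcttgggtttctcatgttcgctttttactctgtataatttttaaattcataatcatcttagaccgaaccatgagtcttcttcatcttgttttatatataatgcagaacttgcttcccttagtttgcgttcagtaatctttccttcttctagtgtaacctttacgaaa
ADE3: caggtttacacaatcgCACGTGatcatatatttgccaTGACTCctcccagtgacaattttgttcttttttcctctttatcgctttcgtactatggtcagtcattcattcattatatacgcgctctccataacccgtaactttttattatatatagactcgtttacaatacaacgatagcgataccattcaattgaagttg
GCV1: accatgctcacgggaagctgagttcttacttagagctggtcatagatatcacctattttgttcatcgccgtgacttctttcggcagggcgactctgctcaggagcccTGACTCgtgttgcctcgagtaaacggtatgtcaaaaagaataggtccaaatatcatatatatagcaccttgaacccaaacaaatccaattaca
GCV2: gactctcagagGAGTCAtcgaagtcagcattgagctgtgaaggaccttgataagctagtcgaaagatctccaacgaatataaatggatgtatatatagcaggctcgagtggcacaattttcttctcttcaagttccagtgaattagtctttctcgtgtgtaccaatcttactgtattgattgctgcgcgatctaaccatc
GCV3: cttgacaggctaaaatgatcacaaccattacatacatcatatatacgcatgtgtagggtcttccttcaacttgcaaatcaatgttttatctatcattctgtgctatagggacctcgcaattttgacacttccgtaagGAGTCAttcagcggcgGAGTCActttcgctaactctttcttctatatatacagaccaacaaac
MET13: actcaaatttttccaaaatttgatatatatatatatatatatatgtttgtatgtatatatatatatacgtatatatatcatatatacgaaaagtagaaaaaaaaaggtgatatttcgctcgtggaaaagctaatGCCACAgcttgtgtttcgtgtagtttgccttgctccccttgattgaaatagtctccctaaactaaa
MET12: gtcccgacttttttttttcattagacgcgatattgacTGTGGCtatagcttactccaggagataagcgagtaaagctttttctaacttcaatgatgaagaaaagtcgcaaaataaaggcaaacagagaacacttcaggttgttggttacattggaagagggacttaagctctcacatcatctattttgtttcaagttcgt

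In the full window, which also takes in the first 50 bases after the start of the coding sequence, TGACTC was found before 5 of the 10 genes, SHM2, ADE3, GCV1, GCV2 and GCV3, and in 8.001% of all 5987 such windows. GCV3 held it at 113 and 97 bases before the start codon, both on the opposite strand. GCV1 held it at 143 bases, ADE3 at 213, SHM2 at 227 and GCV2 at 239. TGTGGC was found before MET13, at 116 bases on the opposite strand, and before MET12, at 213 bases, and in 7.83% of all windows. CACGTG was found before ADE3 alone, at 234 bases, and in 2.91% of all windows. CTTCTT, the glycine response letters described for the GCV genes, was found before GCV1, at 177 bases, and before SHM2, at 142 and 76 bases, and in 36.0% of all windows. SHM1, MIS1 and MET7 held none of the 4 motifs in this window, and bases further upstream were not searched. None of the matches overlapped another. A match is a run of letters, and binding was not measured in these libraries.

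**Figure D1:**
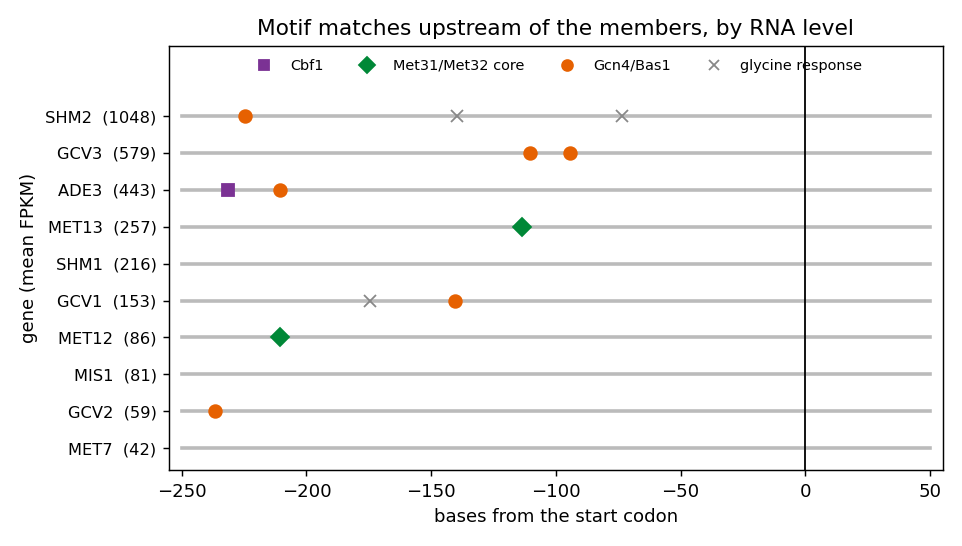
Positions of the 4 motifs upstream of each gene, in bases from the start codon (line at 0), with genes ordered from the highest mean FPKM (in brackets) to the lowest. Gcn4/Bas1 letters stand before SHM2, GCV3, ADE3, GCV1 and GCV2, and Met31/Met32 letters before MET13 and MET12. No match stands in the searched window of SHM1, MIS1 or MET7.

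Of the 10 genes, 9 lay above the all-gene median, where the background is 50% of genes by definition. Their median was 185 ± 6.93 FPKM, and they took 0.487% and 0.445% of all counts. The levels spanned from 1048 FPKM for SHM2 to 42.0 FPKM for MET7. Along this order, only the neighbours MET12 and MIS1 had library values that overlapped. The other 8 neighbouring pairs were separated in these libraries, the closest of them MET13 over SHM1 at a ratio of 1.19. The order holds for coding length, and GCV3 and ADE3 changed places with 300 bases added to each length. The coding sequence of each gene was free of other annotated genes, and 0 of its 50-base windows occurred elsewhere in the genome, so reads of the isozymes could be told apart.

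**Figure D2:**
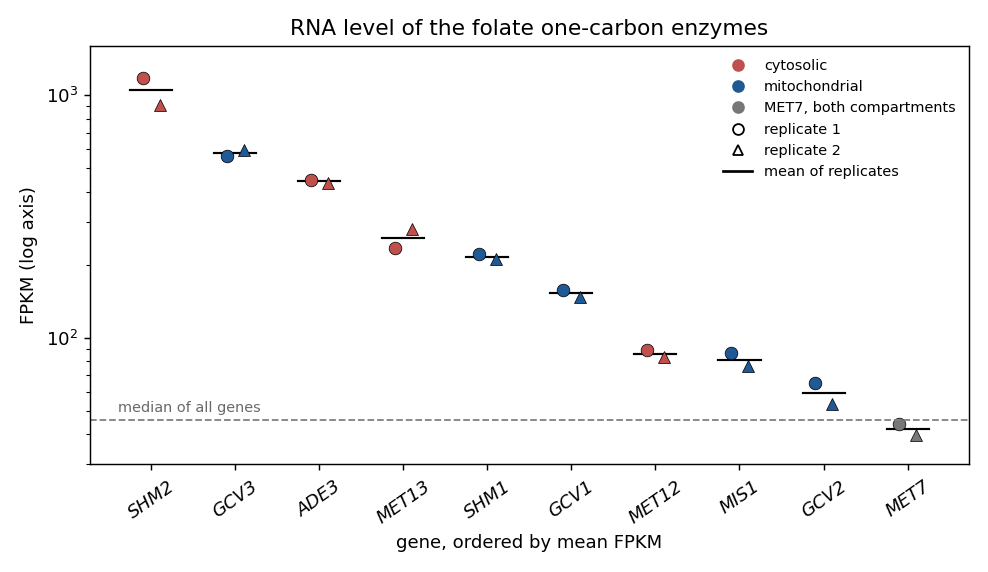
FPKM of the 10 genes in replicates 1 (circles) and 2 (triangles) on a log axis, with the mean as a bar, coloured by compartment. SHM2 stands highest at 1182 and 915 FPKM, and MET7 alone has both points under the all-gene median of 45.9 FPKM (dashed).

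SHM2 was the highest of the 10 genes (YLR058C, chromosome XII, 257992 to 259401). It had 56737 and 45611 counts in replicates 1 and 2, or 1182 and 915 FPKM, and 96.5% of genes lay below its mean of 1048 ± 189 FPKM. SHM1 (YBR263W, chromosome II, 736264 to 737736) had 11073 and 11046 counts, or 221 and 212 FPKM, with a mean of 216 ± 6.17 FPKM. The lowest value of the cytosolic gene was thus well above the highest value of the mitochondrial gene. SHM2 over SHM1 was 5.35 in replicate 1 (95% exact interval 5.25 to 5.46) and 4.31 in replicate 2 (4.23 to 4.41). On the log2 scale the ratio was 2.27 ± 0.22, so it was larger than the gap of 0.31 between replicates, but the gap was itself larger than counting error. SHM2 gave 82.7% ± 2.18 of the summed FPKM of the pair. The proteins of 469 and 490 residues were identical at 60.0% of 467 aligned positions, and Shm1 began 16 residues before Shm2, at the end where mitochondrial targeting sequences lie.

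The trifunctional synthases were split in the same direction. ADE3 (YGR204W, chromosome VII, 905934 to 908774) had 43469 and 43874 counts, or 449 and 437 FPKM. MIS1 (YBR084W, chromosome II, 411054 to 413981) had 8598 and 7909 counts, or 86.2 and 76.4 FPKM. These values made ADE3 the steadiest of the 10 genes, at 443 ± 8.97 FPKM, against 81.3 ± 6.97 FPKM for MIS1. ADE3 over MIS1 was 5.21 in replicate 1 (95% exact interval 5.09 to 5.33) and 5.72 in replicate 2 (5.58 to 5.86), or 2.45 ± 0.09 on the log2 scale. Ade3 and Mis1, of 946 and 975 residues, were identical at 72.1% of 938 aligned positions, the closest of the 3 pairs, and Mis1 began 30 residues earlier. RPL19A, a ribosomal protein gene that converges on MIS1 across 204 bases, stood at 1918 ± 99.6 FPKM, and the strand setting of the counts is not given in the sources used here.

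MTD1 encodes another cytosolic dehydrogenase for methylenetetrahydrofolate, which uses NAD where Ade3 uses NADP. It had 191 and 175 FPKM. ADE3 over MTD1 was 2.42 ± 0.106, and MIS1 over MTD1 was 0.444 ± 0.00963, so MTD1 stood between the trifunctional synthases in both libraries.

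MET13 and MET12 encode isozymes of the reductase, which commits the carbon unit to methionine. MET13 (YGL125W, chromosome VII, 272520 to 274322) had 14384 and 17840 counts, or 234 and 280 FPKM. MET12 (YPL023C, chromosome XVI, 504339 to 506312) had 5991 and 5793 counts, or 89.1 and 83.0 FPKM. The library ranges were far apart, although MET13 was higher in replicate 2 and MET12 was lower there. MET13 over MET12 was 2.63 in replicate 1 (95% exact interval 2.55 to 2.71) and 3.37 in replicate 2 (3.27 to 3.47), or 1.57 ± 0.25 on the log2 scale. MET13 gave 74.8% ± 3.31 of the pair's FPKM, the smallest share among the higher partners of the 3 pairs. Met13 and Met12, of 600 and 657 residues, were identical at 42.5% of 584 aligned positions, the most distant of the 3 pairs. Reading frames that are not annotated genes overlap 390 of the 1803 coding bases of MET13, where counts can be lost, and with those bases taken out of the length the log2 ratio was 1.93. Such reading frames also overlap 420 of 2841 coding bases of ADE3 and 342 of 2928 of MIS1, and no coding bases of the other 7 genes.

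MET6, methionine synthase, which takes the methyl group made by these reductases, had 2806 and 2472 FPKM. MET6 over MET13 was 11.98 in replicate 1 and 8.84 in replicate 2. The reductase RNA was thus lower than the synthase RNA by far more than the replicate spread.

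**Figure D3:**
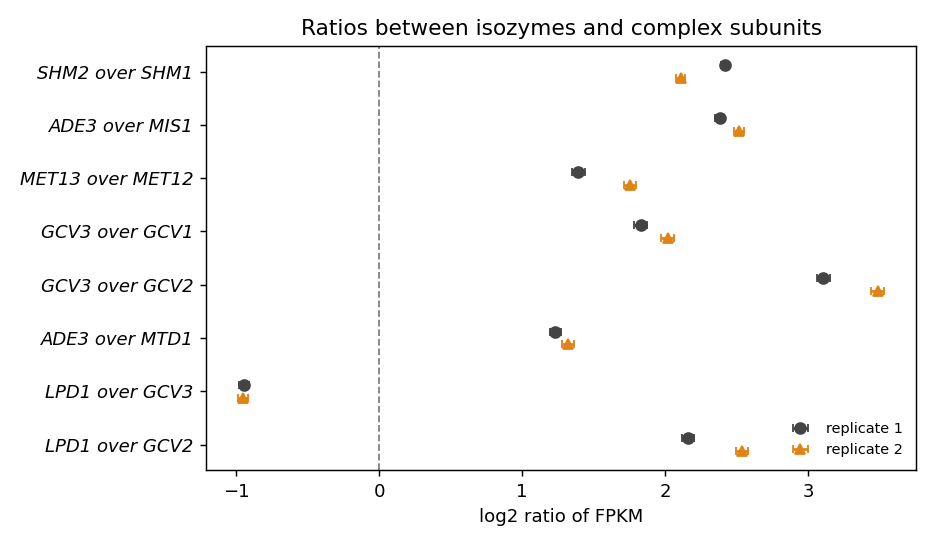
Log2 ratio of FPKM between isozymes and between subunits of glycine cleavage in replicates 1 (grey) and 2 (orange), with 95% exact intervals that cover counting error only. SHM2 over SHM1 and ADE3 over MIS1 lie between 2.11 and 2.52, MET13 over MET12 at 1.39 and 1.75, and the intervals of the replicates overlap only for LPD1 over GCV3.

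The RNAs of the glycine cleavage system were unequal. GCV3, for the lipoyl-bearing H protein (YAL044C, chromosome I, 57950 to 58462), had 9801 and 10823 counts, or 561 and 597 FPKM, which placed it next to SHM2. GCV1, for the T protein (YDR019C, chromosome IV, 484163 to 485365), had 6473 and 6261 counts, or 158 and 147 FPKM. GCV2, for the decarboxylating P protein (YMR189W, chromosome XIII, 637500 to 640604), had 6892 and 5846 counts, or 65.2 and 53.2 FPKM. The library values of these 3 genes did not overlap, in the order GCV3, GCV1, GCV2. LPD1, for the shared L protein, had 291 and 309 FPKM, between GCV3 and GCV1.

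GCV3 over GCV1 was 3.55 and 4.05 in replicates 1 and 2, and GCV3 over GCV2 was 8.61 and 11.2. GCV1 over GCV2 was 2.42 and 2.76. LPD1 over GCV3 was steady, at 0.519 and 0.518, and LPD1 over GCV2 was 4.47 and 5.80. GCV3 is the shortest of the 10 genes, with 513 coding bases, against 3105 for GCV2. A fragment that reaches past a gene's end may be counted in full, which would weigh most in short genes, so the ratios were also taken with 300 bases added to each coding length. GCV3 over GCV2 was then 5.96 and 7.75, GCV3 over GCV1 was 2.80 and 3.20, and ADE3 stood above GCV3, at 401 and 365 FPKM. The order of the GCV genes did not change with this length.

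MET7, for folylpolyglutamate synthetase (YOR241W, chromosome XV, 786995 to 788641), had 2478 and 2315 counts, or 44.2 and 39.7 FPKM. It was the lowest of the 10 genes, and 47.1% of all genes lay below it. SSP2, which converges on MET7 across 100 bases, had 79 and 87 counts.

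Summed by compartment, the 4 cytosolic genes SHM2, ADE3, MET13 and MET12 had 1954 and 1714 FPKM in replicates 1 and 2. The 5 mitochondrial genes SHM1, MIS1, GCV1, GCV2 and GCV3 had 1091 and 1085 FPKM. The reductases were placed with the cytosolic enzymes because their product is used there, and MET7 was placed in neither list. The cytosolic sum over the mitochondrial sum was 1.79 and 1.58, or 0.75 ± 0.13 on the log2 scale. The sum rests on SHM2, which held 60.5% and 53.4% of the cytosolic FPKM, and without it the log2 ratio turned to -0.47. Gene by gene, the compartments overlapped, since mitochondrial GCV3 was second of the 10 and cytosolic MET12 seventh. The higher level of the cytosolic form was thus seen in the SHM and the trifunctional synthase pairs, while the sum over a compartment depended on which genes were in it.

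Codon use was also split in the isozyme pairs. The codon adaptation index compares a gene's codons with those of ribosomal protein genes, and a value of 1 means the same preferred codons throughout. SHM2 had an index of 0.654, above 96.7% of genes, against 0.342 for SHM1, above 90.3%. ADE3 had 0.333 (above 89.9%) against 0.273 for MIS1 (above 83.6%). MET13 had 0.270 (above 83.1%) against 0.195 for MET12 (above 49.7%). In each of the 3 pairs the gene of higher RNA level also had the higher index. The gap was widest for the SHM pair by index, and for the reductases by rank among genes. Over the 10 genes, Spearman's rho between index and mean FPKM was 0.55, and 0.38 over the 9 without SHM2, against 0.41 over 5988 nuclear genes. These are correlations across genes of the same libraries, and genes are not independent replicates. GCV3 lay outside this order, with an index of 0.217 at the second highest level.

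The median of the 10 enzymes, 185 FPKM, stood above that of the other 13 genes listed for folate metabolism, at 58.3 FPKM over gene means. The median of the 13 was 54.6 FPKM in replicate 1 and 61.3 FPKM in replicate 2. Of those 13, 9 lay above the all-gene median of 45.9 FPKM. The highest beside MET6, LPD1 and MTD1 were FOL2, the GTP cyclohydrolase that starts folate synthesis, at 351 ± 3.03 FPKM, and DFR1, dihydrofolate reductase, at 72.8 ± 6.05 FPKM. The lowest were FLX1, at 13.6 ± 0.973 FPKM, and FMT1, at 5.91 ± 0.0402 FPKM. FLX1 encodes a mitochondrial FAD carrier, listed under transport and not as a folate enzyme. FMT1 encodes the enzyme that formylates the mitochondrial initiator tRNA. FMT1 had 244 and 251 counts, so its low level is well above the floor of 3 counts.

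The replicates were compared to see how far single genes moved between cultures. None of the 10 genes, 0 in all, differed by more than 1.3-fold between the libraries. Of the 5793 genes with at least 10 counts in each library, 9.79% did, and with 10 genes a count of 0 cannot be told from that share. The median difference in either direction was 1.09-fold for the 10 genes and 1.08-fold for the 5793. It was 1.07-fold for the 3180 genes at or above the lowest of the 10 by mean FPKM. SHM2 came closest, 1.29-fold lower in replicate 2 or -0.37 on the log2 scale, and 89.7% of genes differed by less. MET13 moved the other way, 1.19-fold higher in replicate 2 or 0.26 on the log2 scale, and 81.1% of genes differed by less. SHM2 over MET13 was therefore 5.04 in replicate 1 and 3.27 in replicate 2. GCV2 was 1.22-fold lower in replicate 2, and ADE3 differed least, at 1.03-fold.

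Of the 10 genes, 8 were lower in replicate 2, where 3427 of 6007 genes were, and only MET13 and GCV3 were higher. Their median difference was -0.10 on the log2 scale, against -0.03 over all genes. SCS3, a gene of lipid metabolism that lies upstream of MET13 on the same strand across 380 bases, had 13779 and 17691 counts in replicates 1 and 2. Its difference of 0.31 on the log2 scale was in the direction of MET13, while MON1, on the other side of MET13, had 1897 and 1941 counts. Beside SHM2, which differed by -0.37, REX2 on the upstream side had 2649 and 2714 counts, a difference of -0.02 after scaling to library totals. MNL2, which converges on SHM2 from the other side, had 1367 and 1292 counts, a difference of -0.14. The neighbouring genes SCS3, MON1, REX2, MNL2, RPL19A and SSP2 were named after their values were seen.

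**Figure D4:**
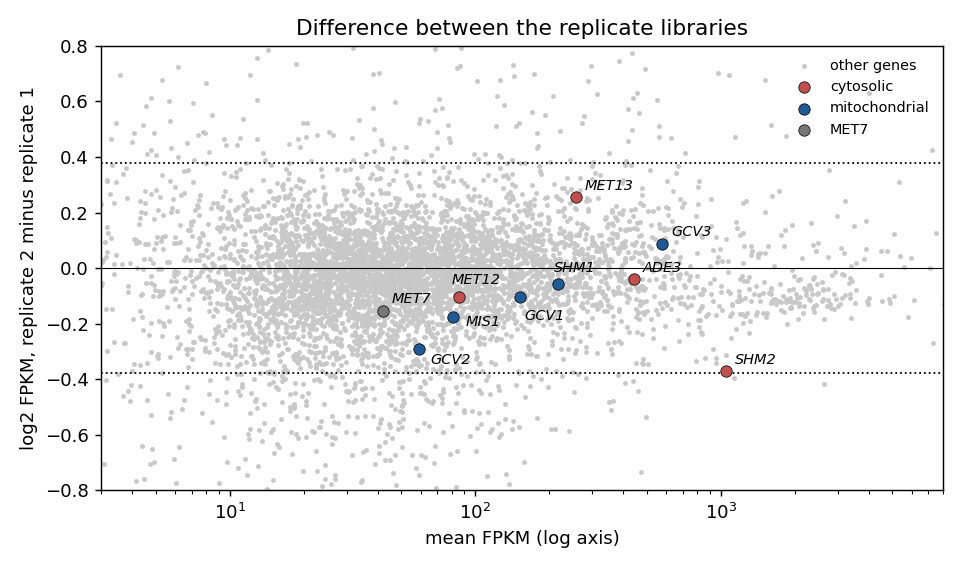
Log2 FPKM of replicate 2 minus replicate 1 against mean FPKM (log axis) for the 10 genes, coloured by compartment, and for other genes (grey, axis limited to the central range). The dotted lines mark 1.3-fold, and all 10 genes lie between them, with SHM2 just above the lower line at -0.37 and MET13 at 0.26.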

How the data were processed

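RNA-seq was measured in 2 libraries of 1 group. The authors captured mRNA on beads, aligned 50-base paired reads to sacCer3 and, per the labels' processing notes, counted with featureCounts 2.0.3. The deposited values are raw counts (whole numbers), although the authors name them FPKM. Not given in the sources used here are the RNA aligner, the annotation, the strand setting and the unit of a count (read or pair). FPKM was computed here from coding lengths of the R64 annotation. The 685 rows without a coding length, which held 0.281% and 0.293% of counts, entered library totals only.

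With 1 group no test between conditions was possible, and no p-value is given. Ratios were taken within a library, with 95% exact (Clopper-Pearson) intervals. No molecular identifiers were used, so intervals and floors (3 counts) reflect counting error alone. If the mates of a pair were counted singly, counts are not independent and the intervals are too narrow. The squared difference between libraries was a median of 5.92 times the Poisson variance over 5793 genes, so the replicates were not 1 library deposited in duplicate. For the 10 genes the median was 18.6 times, and this ratio was not adjusted for count level. Replicate spread may be technical in part.

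Shared sequence was searched with blastn 2.17.0 (at least 50 bases, 98% identity), proteins translated from R64 were aligned with Biopython 1.88 (BLOSUM62), and scaling factors came from R 4.3.3 with DESeq2 1.42.0 and edgeR 4.0.16. The 1.3-fold count was tested on simulated data. The genes and lists were chosen with earlier results of these data known. All 10 genes are named, and of the other folate genes MET6, LPD1, MTD1 and the 2 highest and 2 lowest of the rest. Alternatives were other scaling factors, a filter on low counts, a pseudocount, other lengths, other list members and each replicate left out.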

Additional observations from a re-analysis of the deposited data

How the results depend on the processing

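No paired analysis was possible because there is 1 group. The ratios of the 3 isozyme pairs and of the GCV genes kept their direction under each length, the pseudocount of 1 and each replicate left out. With unannotated reading frames of at least 100 codons taken out of the length, MET13 over MET12 was 1.93 on the log2 scale, against 1.57. With 300 bases added to each length, an alternative chosen after seeing the data like the one before, GCV3 over GCV1 was 1.58, GCV3 over GCV2 was 2.77 and the compartment ratio was 0.97. The compartment ratio of 0.75 moved most with its members. It was 0.45 without MET12 and MET13, 2.62 without GCV1, GCV2 and GCV3, and 1.14 as a median over genes. Without SHM2 it reversed, at -0.47, and without GCV3 it was 1.85, both chosen after seeing the data. The count of 9 genes above the all-gene median and that of 0 genes past 1.3-fold did not change under any alternative run. TMM and DESeq2 factors moved each gene's mean FPKM by at most 0.111%, but its value in a library by more: -1.06% in replicate 1 and 1.07% in replicate 2 with TMM. With TMM, SHM2 was 1.265-fold lower and MET13 1.22-fold higher in replicate 2, and 8 of the 10 genes were still lower there, against 2966 of 6007 genes. With 2 libraries, no spread between cultures can be estimated well, and 1 condition limits every statement to levels.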
